A study of Homo sapiens with 6 samples.

Results

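Cytosolic chaperones and heat shock proteins were described at the RNA level in HGC-27 cells treated with the peptide GLUP. The list also holds genes of mitochondrial proteins, namely the HSP60 and HSP10 pair, HSPA9 and DNAJA3. The 44 genes were chosen by symbol and role, and all 44 were among the 62443 genes of the expression table. Of these, 40 had a mean of at least 1 FPKM (a read level scaled by transcript length and library size) over the 6 libraries and were among the 7406 genes tested, while HSF1, HSPA1A, DNAJB2 and BAG3 were below it.

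HGC-27 is an established human gastric cancer cell line. GLUP, a cyclic peptide, was designed on the segment of VGLL4 through which that protein contacts the transcription factor TEAD4. Total RNA of 3 libraries of cells labelled as untreated (Con) and of 3 libraries of cells given GLUP was sequenced. By the methods GLUP was used at 10 μg/ml and control cells received the buffer of the peptide, and the duration of treatment is stated as 12 h in one place and 48 h in another. All cells were of the same line. The methods mention biological replicates of RNA extraction, and the labels do not say which libraries came from separate cultures, so p-values measure the spread between these libraries, which may in part be technical. In bulk RNA, less RNA per cell and fewer cells that express a gene cannot be told apart.

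Chaperones bind unfolded or partly folded proteins and help them reach their native state. HSP70 proteins bind short hydrophobic stretches in a cycle of ATP hydrolysis that HSP40 (DNAJ) proteins start and nucleotide exchange factors such as HSP110 and BAG proteins complete. HSP90 acts later, on kinases, steroid receptors and other clients, with cochaperones that load clients or set its ATPase. The ring-shaped CCT chaperonin folds actin and tubulin, which prefoldin hands to it. When unfolded proteins accumulate, the transcription factor HSF1 binds heat shock elements, inverted repeats of GAA units, and raises transcription of HSPA1A, HSPA1B, HSPH1, DNAJB1, BAG3, HSPB1 and others. Cancer cells often hold high levels of these proteins.

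Markers of the labelled cells were examined first. VIM, an intermediate filament gene of mesenchymal cells, ranged from 222 to 387 FPKM. FN1, from the same list of mesenchymal markers, was at 0.993 to 3.25 FPKM in Con and 0.644 to 0.671 FPKM in GLUP libraries. CDH2, also of that list, was at most 0.0508 FPKM in any library. The summed level of 5 epithelial markers was 2.97 to 3.70 FPKM in Con and 5.18 to 6.06 FPKM in GLUP libraries, where KRT8, KRT18 and KRT19 were higher in every GLUP library and EPCAM and CDH1 were at most 0.124 FPKM in any library. The summed level of 4 fibroblast markers was 25.5 to 45.4 FPKM in Con and 19.5 to 27.6 FPKM in GLUP libraries, most of it DCN, while PDGFRB was at 0.110 to 0.140 and 0.184 to 0.198 FPKM. CD3E and HBB, markers of blood cells, were listed at 0 in every library. Of 5 markers of gastric mucosa, TFF1, TFF2, MUC6 and GKN1 were listed at 0 in every library. The part of these markers in the results below was not tested. Con replicate 2 stood apart from the other libraries, with a mean Pearson correlation of 0.898 to them against 0.954 to 0.964 for the rest. The deviation of a gene from its mean over the libraries followed the GC content of its transcript, with a Spearman correlation of -0.34 and -0.59 in Con replicates 1 and 2 and of 0.34 to 0.54 in Con replicate 3 and the 3 GLUP libraries. On the means of the groups, genes of low GC content were lower, and genes of high GC content higher, in GLUP than in Con. Con replicate 3 lay with the GLUP libraries in this trend, and values that rest on Con replicates 1 and 2 carry it. The log2 fold changes (GLUP minus Con) of KRT8, KRT18 and KRT19 were 0.41, 0.67 and 0.31. With the trend with GC content and length removed from each library they were 0.043, 0.31 and -0.10. Mitochondrially encoded genes held 21.9 to 29.7% of all FPKM.

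To show which control regions carry the letters that HSF1 binds, the 250 bases before each RefSeq transcription start (GRCh38.p14) were searched on both strands. A run of 3 units (GAANNTTCNNGAA or TTCNNGAANNTTC) was present in 5 of 51 windows of 37 chaperone genes (9.8%) and in 0.441% of all 35116 windows. The genes were HSP90AA1, HSP90AB1, HSPA8, HSPD1 and DNAJB6. The shorter run of 2 units (GAANNTTC or TTCNNGAA), which every longer run contains, was in 16 of the 51 windows (31.4%) and in 11.6% of all windows. The motif of TEAD factors (GGAATG or CATTCC) was in 5 of the 51 windows (9.8%) and in 11.9% of all. A match is a description of letters and not evidence of binding. The windows of 4 genes that the results below turn on are given 5′ to 3′ on the strand of the gene, with the units in capitals. They are HSPB1 at chr7:76302423-76302672 (+), DNAJB6 at chr7:157336754-157337003 (+), HSP90AA1 at chr14:102087045-102087294 (-) and, for HSP90AB1, the one of its 3 windows that held the units, at chr6:44247693-44247942 (+), which lies downstream of the other 2 windows.
HSPB1: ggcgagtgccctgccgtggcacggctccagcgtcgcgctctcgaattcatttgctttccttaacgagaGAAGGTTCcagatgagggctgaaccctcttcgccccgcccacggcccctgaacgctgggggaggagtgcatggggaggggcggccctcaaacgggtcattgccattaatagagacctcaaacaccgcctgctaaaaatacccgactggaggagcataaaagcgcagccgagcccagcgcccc
DNAJB6: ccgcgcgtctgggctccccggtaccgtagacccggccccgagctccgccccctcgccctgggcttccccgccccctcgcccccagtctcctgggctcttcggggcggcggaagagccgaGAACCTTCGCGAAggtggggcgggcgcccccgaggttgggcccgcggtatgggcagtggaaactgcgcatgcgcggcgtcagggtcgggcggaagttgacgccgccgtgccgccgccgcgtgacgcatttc
HSP90AA1: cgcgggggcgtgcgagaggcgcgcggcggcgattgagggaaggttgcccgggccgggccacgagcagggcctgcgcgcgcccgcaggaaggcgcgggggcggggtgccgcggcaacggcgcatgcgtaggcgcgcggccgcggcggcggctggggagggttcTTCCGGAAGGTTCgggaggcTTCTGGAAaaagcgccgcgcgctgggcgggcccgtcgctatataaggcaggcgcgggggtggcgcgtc
HSP90AB1: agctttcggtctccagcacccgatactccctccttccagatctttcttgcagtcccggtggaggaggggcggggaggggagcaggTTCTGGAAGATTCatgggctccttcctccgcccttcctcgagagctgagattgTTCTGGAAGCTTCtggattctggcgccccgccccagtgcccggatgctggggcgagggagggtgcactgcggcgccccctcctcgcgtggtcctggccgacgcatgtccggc
DNAJB6 and both HSP90 genes thus hold the longer run, which occurs once in DNAJB6 and HSP90AA1 and as 2 separate runs in HSP90AB1, whereas HSPB1 holds only 1 shorter run, which starts 182 bases before the transcription start.

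No chaperone gene passed an adjusted p of 0.05 between GLUP and Con, as was true of all genes tested (0 of 7406, 0% by limma with Benjamini-Hochberg adjustment, of which 1606 or 21.7% had an unadjusted p under 0.05). The mean was lower in GLUP for 27 of the 40 tested chaperone genes (67.5%) and for 65.5% of all genes. The median log2 fold change (GLUP minus Con, on the log2(FPKM + 1) scale used throughout) was -0.27 for the chaperone genes and -0.23 for all genes. In 12 chaperone genes (30%) every GLUP library was below every Con library, against 22.7% of all genes. In 3 genes, HSP90AA1, AHSA1 and CCT3, every GLUP library was above every Con library, against 7.55% of all genes, which makes 15 of 40 without overlap in either direction, against 30.3% of all genes. Scaling by the trimmed mean of log ratios, which moved the median of all genes from -0.23 to -0.010, made this split 8 lower and 8 higher of 40, against 14.4% lower and 14.2% higher of all genes. An unadjusted p under 0.05 was reached by 8 genes with a lower mean (17.2% of all genes) and 1 with a higher mean (4.46% of all genes). As a set, the chaperone genes were therefore near the background of the table, and the values of single genes are described below.

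**Figure D1:**
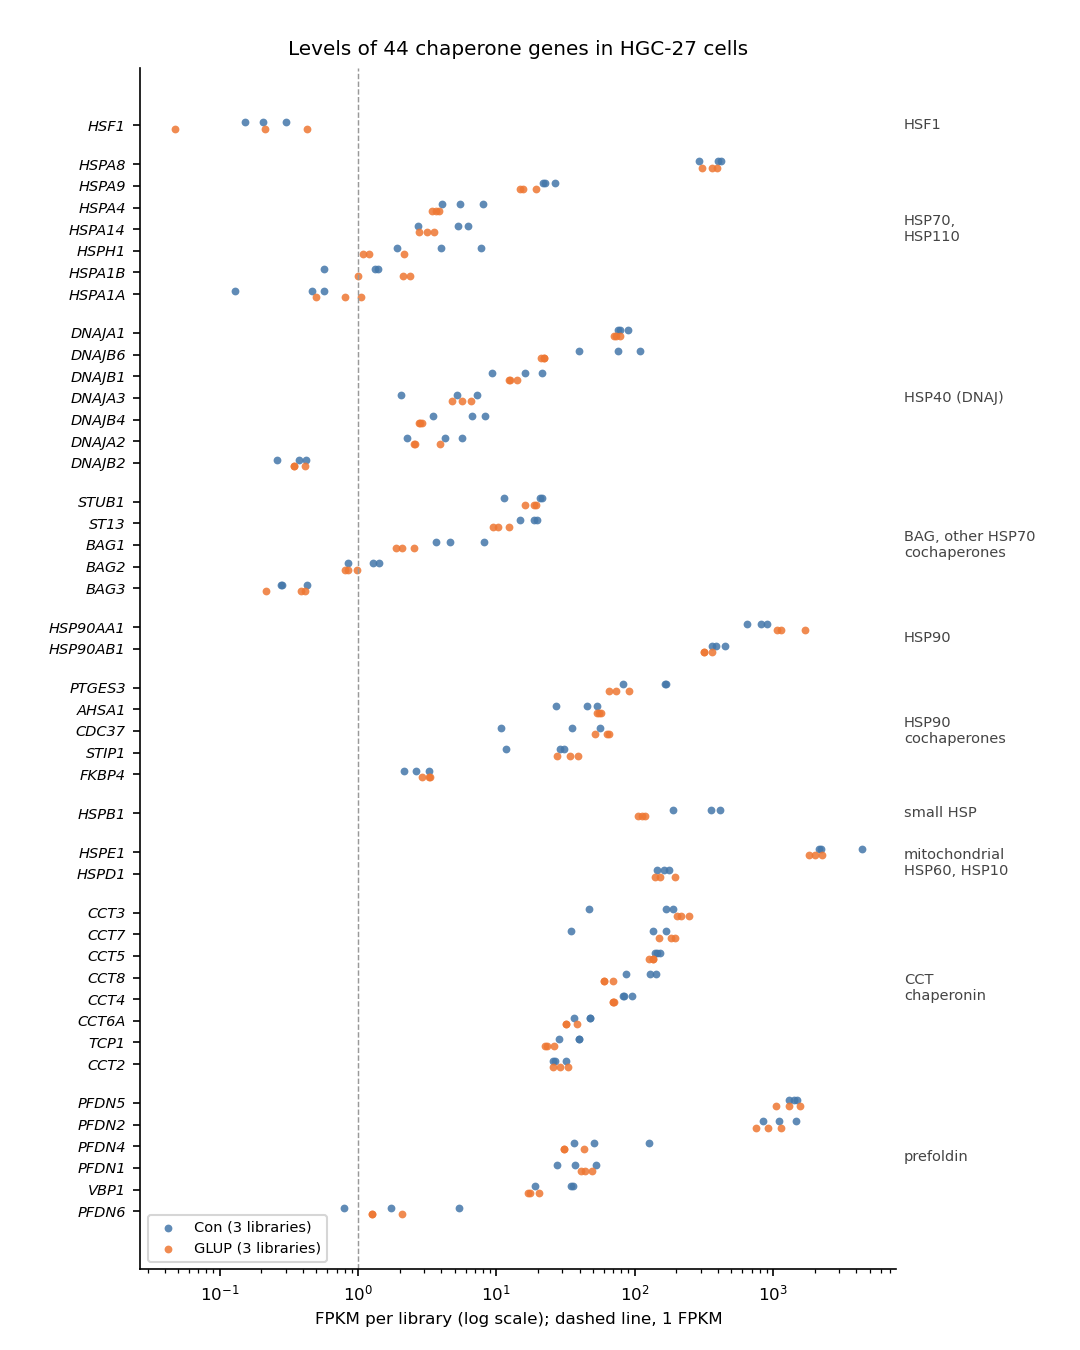
Level of the 44 chaperone genes in each of the 6 libraries, in FPKM on a log axis, grouped by role, with 1 point per library, Con in blue and GLUP in orange, and a dashed line at 1 FPKM. Levels span from means below 1 FPKM for HSF1, HSPA1A, DNAJB2 and BAG3 to a mean of 2485 FPKM for HSPE1.

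HSF1, the master regulator of the heat shock response, had levels of 0.299, 0.152 and 0.207 FPKM in Con and of 0.0472, 0.431 and 0.211 FPKM in GLUP, where values of a gene are always given in the order of replicates 1 to 3. The groups overlapped and all 6 values were under 1 FPKM. Of the stress-inducible genes that it is known to raise, HSPA1A, HSPA1B and BAG3 were low as well. HSPA1A, which encodes inducible HSP70, was at 0.466, 0.129 and 0.565 FPKM in Con and 0.798, 1.05 and 0.493 FPKM in GLUP. HSPA1B, which encodes the same protein from a neighbouring gene, was at 1.39, 0.564 and 1.32 FPKM in Con and 2.11, 2.35 and 0.994 FPKM in GLUP (log2 fold change 0.42, SE 0.28, adjusted p = 0.357), which overlap. Since the transcripts are near-identical, the split of reads between them is uncertain, so their sum was taken, which was 1.48 ± 0.677 FPKM in Con and 2.60 ± 0.994 FPKM in GLUP (SD, n = 3 each; exact permutation test over libraries, two-sided p = 0.3). With 3 against 3 libraries the smallest p of that test is 0.1. The sum overlapped between groups because GLUP replicate 3 was below 2 of the Con libraries. BAG3, an exchange factor that links HSP70 to selective autophagy, was at 0.275, 0.283 and 0.430 FPKM in Con and 0.384, 0.416 and 0.216 FPKM in GLUP, which overlap.

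Among the HSP70 and HSP110 genes, HSPA8 had the highest level. HSPA8, the constitutive cytosolic HSP70, was at 401, 290.1 and 420.3 FPKM in Con and 396, 362 and 309 FPKM in GLUP. The groups overlapped, with a log2 fold change of -0.048 (SE 0.28, adjusted p = 0.922). HSPH1, the HSP110 exchange factor, was at 3.95, 7.74 and 1.91 FPKM in Con and 2.13, 1.20 and 1.09 FPKM in GLUP. The log2 fold change of HSPH1 was -1.04 (SE 0.39, adjusted p = 0.198), Con replicate 2 was the highest of all 6 libraries, and Con replicate 3 was below GLUP replicate 1. HSPA4, another HSP110-type gene, was at 5.46, 8.01 and 4.06 FPKM in Con and 3.84, 3.40 and 3.67 FPKM in GLUP, without overlap but with an adjusted p of 0.290 (log2 fold change -0.52, SE 0.29). HSPA9, the mitochondrial HSP70, also did not overlap, with means of 23.5 ± 2.68 and 16.7 ± 2.50 FPKM (SD, n = 3), and its adjusted p was 0.311. HSPA14, a ribosome-linked HSP70, had a log2 fold change of -0.42 and overlapped.

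DNAJB6, an HSP40 protein that holds back aggregation of polyglutamine proteins, had the most negative log2 fold change of the 40 genes. It was at 75.7, 109 and 39.8 FPKM in Con and 22.1, 20.9 and 22.2 FPKM in GLUP. The GLUP libraries lay close together and below every Con library, while the Con libraries were spread over a wide range, and the log2 fold change was -1.63 (SE 0.38, adjusted p = 0.194). Transcripts that carry a pseudogene symbol of DNAJB6 held 5.59% of its mean level. DNAJB4, which is expressed in many tissues and acts with HSP70, was at 6.63, 8.28 and 3.51 FPKM in Con and 2.77, 2.81 and 2.92 FPKM in GLUP, again without overlap (log2 fold change -0.83, SE 0.31, adjusted p = 0.198). DNAJB1, the stress-inducible HSP40, was at 21.3, 9.27 and 16.2 FPKM in Con and 14.1, 12.3 and 12.6 FPKM in GLUP. The 3 GLUP values lay inside the range of Con (log2 fold change -0.17, SE 0.34, adjusted p = 0.759). TECR, an opposite-strand gene whose exons overlap those of DNAJB1, had a mean of 181 FPKM, and whether strand was used in counting is not given in the sources used here. DNAJA1, DNAJA2 and DNAJA3, general HSP40 proteins of the cytosol and, for DNAJA3, of mitochondria, had log2 fold changes of -0.12, -0.29 and 0.31 and overlapped. DNAJB2 was at 0.261 to 0.417 FPKM.

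BAG1, an exchange factor that couples HSP70 to the proteasome, was at 4.65, 8.20 and 3.63 FPKM in Con and 2.54, 2.06 and 1.88 FPKM in GLUP. Every GLUP library was below every Con library (log2 fold change -0.98, SE 0.31, adjusted p = 0.194). ST13 (HIP), which stabilises HSP70 bound to its client, was at 18.7, 19.6 and 14.8 FPKM in Con and 12.3, 10.2 and 9.41 FPKM in GLUP, also without overlap (log2 fold change -0.68, SE 0.28, adjusted p = 0.210). Pseudogene copies of ST13 held 7.53% of its mean. STUB1 (CHIP), the ubiquitin ligase that marks chaperone clients, and BAG2, its inhibitor, overlapped, with log2 fold changes of 0.059 and -0.21.

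The HSP90 genes differed in direction. HSP90AA1, the inducible form, was at 825, 648 and 902 FPKM in Con and 1136, 1076 and 1719.6 FPKM in GLUP. All GLUP libraries were above all Con libraries and GLUP replicate 3 was the highest, and the log2 fold change was 0.71 (SE 0.28, adjusted p = 0.204). HSP90AB1, the constitutive form, was at 362, 448 and 386 FPKM in Con and 359.9, 318 and 315 FPKM in GLUP. The GLUP libraries were all lower, but GLUP replicate 1 was almost level with Con replicate 1 (log2 fold change -0.26, SE 0.26, adjusted p = 0.527), and the direction turned to 0.033 when libraries were scaled by the trimmed mean of log ratios. The ratio of HSP90AA1 to HSP90AB1 was 2.28, 1.44 and 2.34 in Con and 3.16, 3.38 and 5.45 in GLUP. This ratio, chosen after the values were seen, did not overlap between the groups (means 2.02 ± 0.4997 and 3.998 ± 1.27, SD, n = 3; exact permutation test, two-sided p = 0.1).

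Of the 5 HSP90 cochaperones, 4 had a higher mean and 1 a lower mean in GLUP. CDC37, which delivers kinases to HSP90, was at 35.0, 10.8 and 55.8 FPKM in Con and 63.4, 65.6 and 51.4 FPKM in GLUP. The groups overlapped through Con replicate 3, Con replicate 2 was far below the other libraries, and the log2 fold change of 1.07 (SE 0.51, adjusted p = 0.247) was 0.43 without Con replicate 2. AHSA1 (AHA1), the activator of the HSP90 ATPase, was at 53.2, 27.0 and 45.5 FPKM in Con and 53.3, 56.8 and 55.6 FPKM in GLUP. GLUP replicate 1 was almost level with Con replicate 1 (log2 fold change 0.44, SE 0.33, adjusted p = 0.402). STIP1 (HOP), the bridge between HSP70 and HSP90, and FKBP4, an HSP90-binding immunophilin, overlapped, with log2 fold changes of 0.56 and 0.18. Without Con replicate 2 the values of AHSA1, STIP1 and FKBP4 were 0.16, 0.13 and 0.073. PTGES3 (p23), which stabilises the closed form of HSP90, was at 169.7, 166 and 82.6 FPKM in Con and 91.0, 73.0 and 65.2 FPKM in GLUP. Con replicate 3 lay among the GLUP libraries (log2 fold change -0.80, SE 0.36, adjusted p = 0.228), and pseudogene copies held 12.7% of the mean of PTGES3.

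HSPB1 (HSP27), a small heat shock protein that holds unfolded proteins and protects actin filaments, was the only small heat shock gene among the 44. It was at 358, 189.8 and 416 FPKM in Con and 107, 119 and 114 FPKM in GLUP. All GLUP libraries were below the lowest Con library, with means of 321 ± 118 FPKM in Con and 113 ± 6.30 FPKM in GLUP (SD, n = 3). The mean was 2.84-fold higher in Con than in GLUP, and the log2 fold change was -1.42 (SE 0.34, adjusted p = 0.194). HSPB1 had the highest GC content of the tested chaperone genes, 65.3%, and all tested genes between 59.7 and 74.4% had a median log2 fold change of 0.31, so that its direction was opposite to theirs. After the trend with GC content and length was removed from each library its log2 fold change was -1.64 (adjusted p = 0.0674). It passed the threshold without Con replicate 2 (log2 fold change -1.76, adjusted p = 0.0179) and without Con replicate 3 (-1.20, adjusted p = 0.0485). Without Con replicate 3, 18.5% of all genes passed. HSPB1 did not pass in the fit of all 6 libraries, without Con replicate 1 (-1.31, adjusted p = 0.376) or with any 1 GLUP replicate left out.

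**Figure D2:**
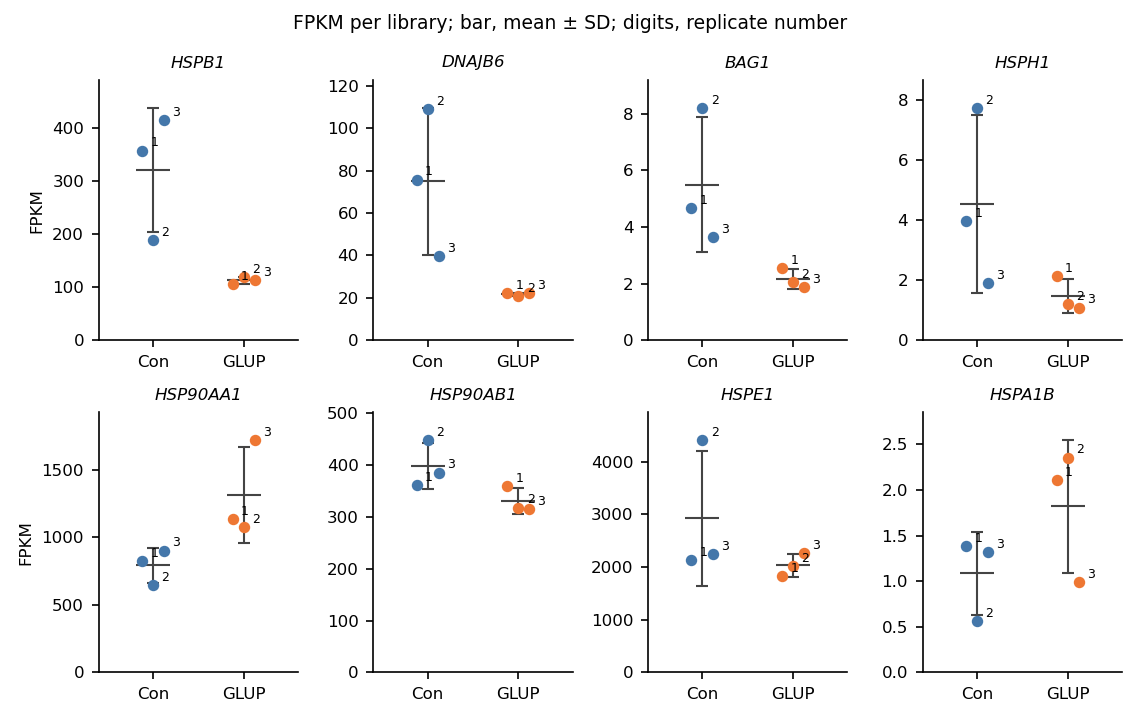
FPKM of single chaperone genes in each library on linear axes that start at 0, with replicate numbers beside the points and bars for mean and SD (n = 3 each). The HSPB1 and DNAJB6 points of GLUP lie close together below all Con points, and those of HSP90AA1 lie above all Con points.

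The mitochondrial pair HSPD1 (HSP60) and HSPE1 (HSP10), a barrel and its lid encoded head to head from a shared promoter region, overlapped between groups. HSPE1 had the highest level of the 44 genes, at 2140.4, 4409.9 and 2243 FPKM in Con and 1830.6, 2019.7 and 2264 FPKM in GLUP. Con replicate 2 was far above the other 5 libraries, which lay between 1830.6 and 2264 FPKM (log2 fold change -0.45, SE 0.31, adjusted p = 0.368). HSPD1 was at 176, 163 and 145 FPKM in Con and 196, 141 and 153 FPKM in GLUP, with a log2 fold change of 0.0053 (SE 0.28, adjusted p = 0.992). The exons of the genes overlap on opposite strands, HSPE1 shares sequence with the read-through gene HSPE1-MOB4, and 26 genes with a pseudogene symbol of HSPE1 held 5.27% of its mean, so these levels are uncertain to that extent.

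The 8 subunits of the CCT chaperonin, which stand in equal numbers in the complex, did not share a direction. CCT8 was at 129, 143 and 85.9 FPKM in Con and 69.9, 60.5 and 60.0 FPKM in GLUP, without overlap (log2 fold change -0.87, SE 0.31, adjusted p = 0.198). TCP1 (CCT1), CCT4 and CCT5 also had every GLUP library below every Con library, with log2 fold changes of -0.55, -0.31 and -0.14 (-0.26, -0.018 and 0.16 when scaled by the trimmed mean of log ratios, where CCT5 changes direction), while CCT6A and CCT2 overlapped, at -0.35 and 0.061. CCT3 was at 167, 46.9 and 191 FPKM in Con and 248, 216 and 202 FPKM in GLUP. Its GLUP libraries were all higher (log2 fold change 0.94, SE 0.49, adjusted p = 0.267), with Con replicate 2 far below the rest, and the value was 0.31 without that library. CCT7 was at 137, 34.9 and 169 FPKM in Con and 194, 184 and 151 FPKM in GLUP, where the groups overlapped (log2 fold change 0.90, SE 0.53, adjusted p = 0.306) and the value without Con replicate 2 was 0.20. CCT3 and CCT7 transcripts have a GC content of 50.6 and 51.6%, whereas those of the other subunits are between 41.5 and 44.5%. The share of CCT3 and CCT7 in the summed FPKM of the 8 subunits was 38.3, 14.5 and 46.7% in Con and 54.2, 54.3 and 50.2% in GLUP. The sum of the other 6 subunits was 489, 481 and 411 FPKM in Con and 374, 337 and 350.1 FPKM in GLUP. Neither quantity overlapped between groups (exact permutation test, two-sided p = 0.1 each), and both were chosen after the values were seen. With the trend with GC content and length removed from each library, the log2 fold changes of CCT3 and CCT7 were 1.0056 and 0.9037. Those of CCT8, TCP1, CCT6A, CCT4, CCT5 and CCT2 were then -0.35, -0.062, 0.13, 0.16, 0.28 and 0.55. The share and the sum were not computed after that removal, and the part of base composition in them was not tested.

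**Figure D3:**
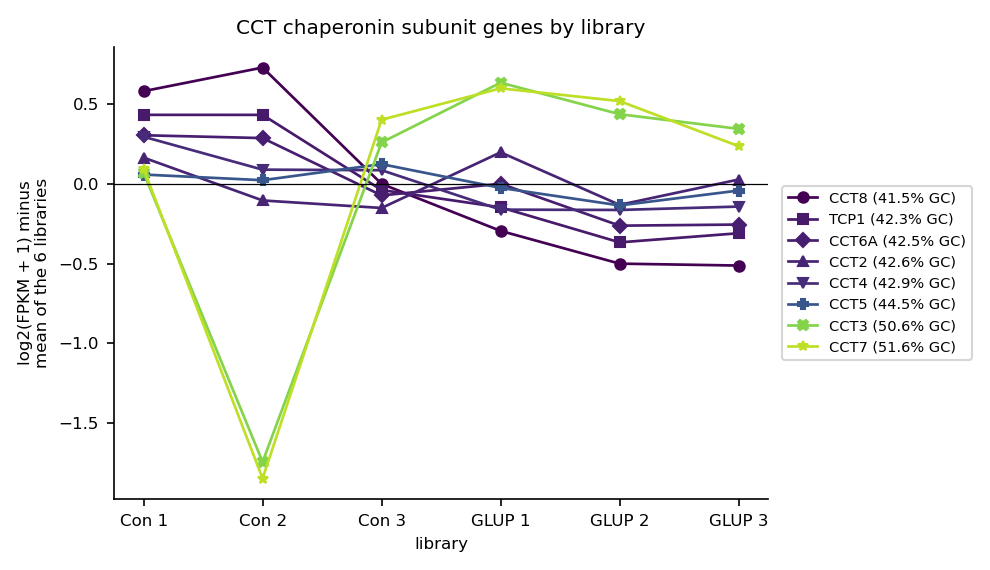
Level of the 8 CCT subunits in each library, as log2(FPKM + 1) minus the mean of the 6 libraries for that gene, coloured by GC content. CCT3 and CCT7 are far lower in Con replicate 2 (46.9 and 34.9 FPKM) than in any other library, and the other 6 subunits are not far lower there.

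The prefoldin subunits differed in level from each other more than between groups. PFDN5 and PFDN2 had means of 1358 and 1041 FPKM and made up 93.8 to 96.4% of the summed FPKM of the 6 subunits, whereas PFDN6 had a mean of 2.08 FPKM. VBP1 (PFDN3) was at 34.5, 36.0 and 19.0 FPKM in Con and 17.0, 17.5 and 20.3 FPKM in GLUP, and Con replicate 3 lay among the GLUP libraries (log2 fold change -0.63, SE 0.33, adjusted p = 0.269). PFDN4 was at 50.6, 127 and 36.2 FPKM in Con and 30.9, 31.0 and 43.3 FPKM in GLUP, with Con replicate 2 apart from the rest (log2 fold change -0.81, SE 0.45, adjusted p = 0.285). The groups overlapped for PFDN1, PFDN2, PFDN5 and PFDN6 as well, with log2 fold changes from -0.34 to 0.23.

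**Figure D4:**
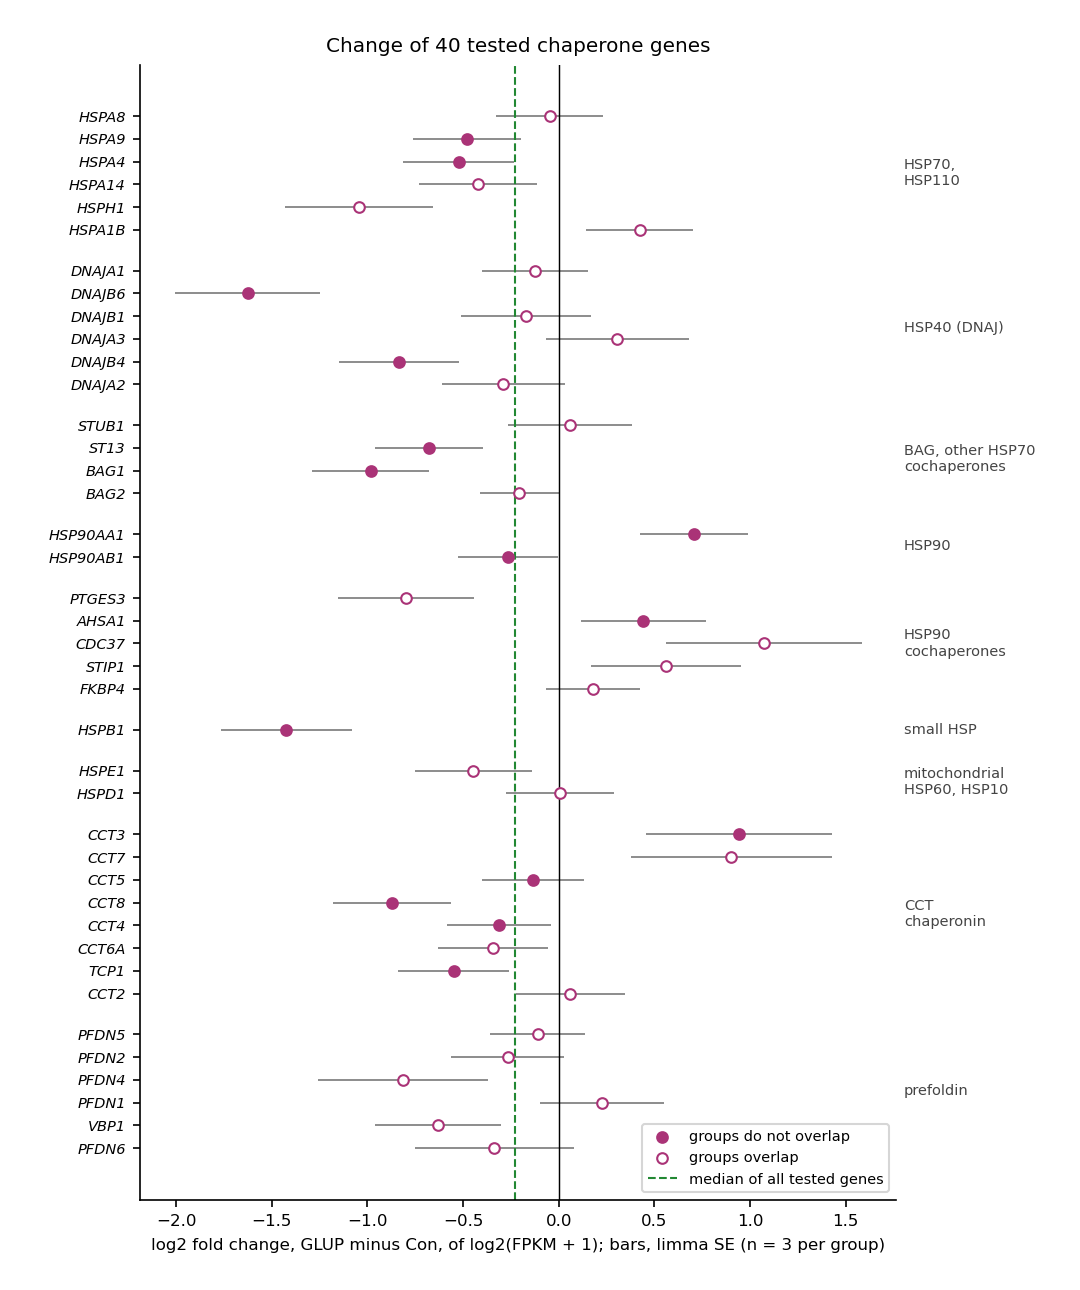
Log2 fold change (GLUP minus Con, with SE) of the 40 tested chaperone genes, grouped by role, with filled points where the groups do not overlap and a dashed line at the median of all tested genes (-0.23). Values run from -1.63 for DNAJB6 to 1.07 for CDC37, and 27 of the 40 lie below 0.

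The log2 fold change rose with GC content among the chaperone genes, as it did over the whole table. The Spearman correlation of log2 fold change with the GC content of the transcript was 0.51 over the 40 chaperone genes and 0.55 over all tested genes, where the points share the same 6 libraries. The mean was lower in GLUP for 17 of the 20 chaperone genes below the median GC content of these genes and for 10 of the 20 above it. Con replicate 2 was the lowest of the 6 libraries for 13 chaperone genes, of median GC content 51.6%, and the highest for 15, of median GC content 40.1%. With the trend with GC content and length removed, 17 of the 40 had a lower mean, against 48.7% of all genes. The median log2 fold change was then 0.078, against 0.015 for all genes. Every GLUP library was below every Con library in 5 of the 40 and above in 10, against 13.4% and 15.3% of all genes. DNAJB6 (-1.45) and BAG1 (-0.75) kept a negative value, as did HSPB1. HSP90AA1, with a GC content of 41.6% where all tested genes between 40.4 and 42.5% had a median of -0.45, had a log2 fold change of 1.20 (adjusted p = 0.191) after that removal. HSPH1 was at -0.52 and CCT8 at -0.35. Other genes whose GLUP libraries were all lower came close to 0 or turned, with DNAJB4 at -0.16, ST13 at -0.14, HSPA4 at -0.063, TCP1 at -0.062, HSPA9 at -0.011, HSP90AB1 at 0.017, CCT4 at 0.16 and CCT5 at 0.28.

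**Figure D5:**
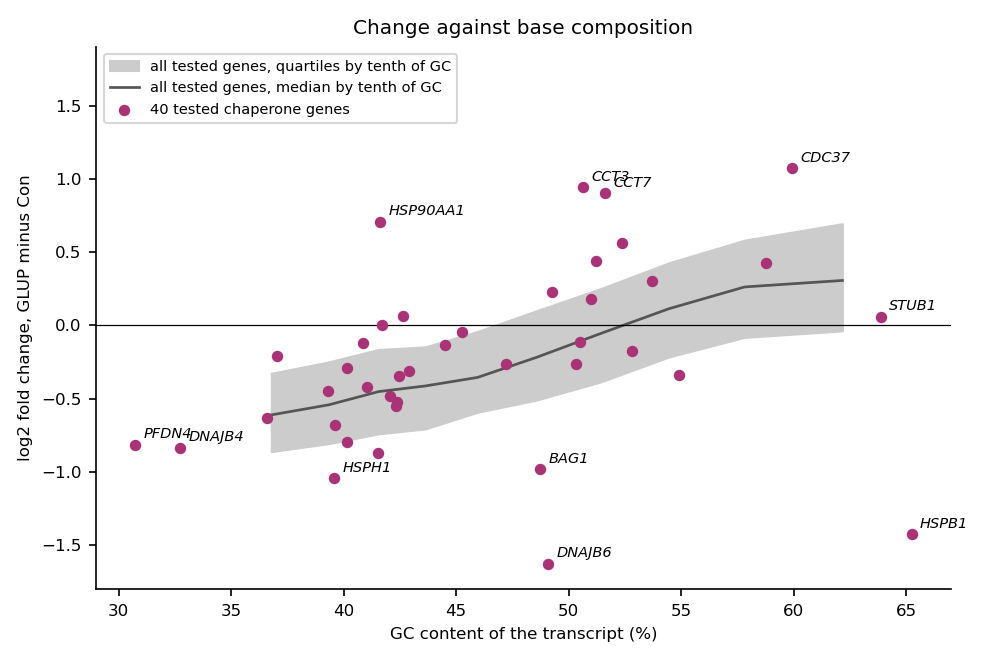
Log2 fold change (GLUP minus Con) of the 40 tested chaperone genes against the GC content of their transcript in percent, over the median (line) and quartiles (grey) of all tested genes in 10 bins of GC content. HSPB1 (65.3% GC, -1.42), DNAJB6 and BAG1 are among the genes below the grey band, and HSP90AA1, CCT3, CCT7 and CDC37 among those above it.

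Without Con replicate 3, 8 chaperone genes (20% of 40) passed an adjusted p of 0.05, against 18.5% of all genes, with Con represented by 2 libraries. They were BAG1, CCT8, DNAJB4, DNAJB6, HSPB1, HSPH1, PTGES3 and VBP1, all with a lower mean in GLUP. Without Con replicate 2, HSPB1 was the one chaperone gene that passed, among 3 of 7406 genes in all.

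Other genes of protein folding were counted in the same way. Of 100 further chaperone genes 99 were found and 74 tested, and 53 of these (71.6%) had a lower mean in GLUP, against 65.5% of all genes. In 26 (35.1%) every GLUP library was below every Con library, against 22.7% of all genes, and in 4 every GLUP library was above, against 7.55% of all genes. An unadjusted p under 0.05 was found for 21 with a lower mean and 3 with a higher mean (17.2% and 4.46% of all genes), and none passed after adjustment. The median log2 fold change was -0.42, and -0.12 with the trend with GC content and length removed. The smallest p among genes with a lower mean belonged to SDF2L1, part of an endoplasmic reticulum chaperone complex (log2 fold change -1.76), URI1, a prefoldin-like protein (-1.34), and TBCB, a tubulin folding cofactor (-1.46). Among genes with a higher mean it belonged to SERPINH1 (HSP47), the collagen chaperone (0.94), P4HB, a protein disulfide isomerase (1.13), and UNC45A, a myosin chaperone that works with HSP90 (0.74). SDF2L1 was at 159.7, 57.4 and 67.3 FPKM in Con and 19.2, 27.8 and 27.1 FPKM in GLUP, and SERPINH1 was at 9.67, 8.54 and 15.3 FPKM in Con and 23.6, 20.2 and 21.6 FPKM in GLUP. Neither gene overlapped between the groups. Of the 3 small heat shock genes tested besides HSPB1, CRYAB and HSPB3 had every GLUP library below every Con library. Their log2 fold changes were -0.72 and -0.91. HSPB8 overlapped and went the other way, at 0.38.

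The genes whose level followed HSPH1 and HSPE1 most closely over the 6 libraries were taken as a description. For HSPH1 they were ARRDC3, MIR100HG and CEP152 (Pearson r 0.999, 0.997 and 0.996 of log2 values). For HSPE1 they were MYL12A, ABCF1 and RPL35 (0.997, 0.997 and 0.993). These values share the same 6 libraries, of which Con replicate 2 stands apart.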

How the data were processed

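RNA of 3 Con and 3 GLUP libraries was analysed from the FPKM table that the authors deposited, 1 column per library. The submitters' processing notes name GRCh38.p10, HISAT2, Cufflinks and RSEM without roles, whereas the gene identifiers carry the suffix of a GENCODE annotation lifted to GRCh37, and counting strand is not given in the sources used here. Counts were not analysed here, and low values did not step by whole reads (2.84 to 8.41% of low values within 1% of 1 to 4 steps), so depth is unknown. Of 62492 rows, 49 pseudoautosomal Y copies, all at 0, were left out.

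Genes whose mean reached 1 FPKM were tested with limma 3.58.1 (R 4.3.3) on log2(FPKM + 1), eBayes with trend, two-sided, with Benjamini-Hochberg adjustment over all 7406 genes at a threshold of 0.05. GC content and length came from GENCODE on GRCh37 (99.8% of tested genes), promoter windows from RefSeq GRCh38.p14. The fit was tested on simulated data, in which all libraries had the spread of the GLUP libraries and no trend with GC content. That test does not cover the spread among Con libraries or the trend. The 44 genes and all lists were chosen with earlier results of these data known. Values in every library were given for HSF1, the inducible genes, both HSP90 genes, HSPA8, HSPD1, HSPE1, the 2 genes of smallest p in each role of 5 or more, and every gene with an unadjusted p under 0.05. AHSA1, CCT7, HSPA9, the ratio and the CCT shares were chosen after values were seen. Alternatives were other pseudocounts, filters, scalings, moderation, a replicate block, removal of the GC and length trend, and each library left out. A local linear removal of that trend was added after seeing the data.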

Additional observations from a re-analysis of the deposited data

How the results depend on the processing

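Settings were compared for the tested chaperone genes that the rule above selected for values in every library. Of their values, 415 kept direction and side of the threshold, 30 changed sign and 10 newly passed it. The count of genes called over the table was 0 in the fit of all libraries, 1 with a minimum of 5 FPKM, without trend or after removal of the GC and length trend, 2 with local linear removal, and 0 to 1367 with 1 library left out (3 without Con replicate 2, 1367 without Con replicate 3). The median log2 fold change of the chaperone genes, -0.27, was 0.00115 with upper quartile scaling, 0.00684 with the trimmed mean, -0.00116 when centred on the median gene, 0.0775 after removal of that trend and 0.0671 with local linear removal. The count of chaperone genes without overlap was 15, and 15 to 25 with 1 library left out (25 of 40 without Con replicate 3, where 43.1% of all genes were lower and 13.7% higher without overlap). In each of those fits the share of all genes rose too. It was 24.1 to 43.1% lower and 9.21 to 13.7% higher, against 22.7% and 7.55% in the fit of all libraries.

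Changes of sign occurred in 7 of the genes so compared, and their cause was not tested. Genes outside that selection changed sign as well. After removal of the GC and length trend, CCT4, CCT5, CCT6A, HSPA14, DNAJA1, DNAJA2 and BAG2 turned from negative to positive. Their values were then 0.16, 0.28, 0.13, 0.12, 0.41, 0.24 and 0.36. STUB1 turned from 0.059 to -0.34. HSPD1 was at -0.0323 with a common total, -0.0455 without mitochondrially encoded genes and -0.13 to 0.10 with 1 library left out. DNAJB1 was at 0.10 with the upper quartile, 0.11 with quantile normalization and the trimmed mean, 0.0927 with centring and -0.48 to 0.077 with 1 library left out. HSPA8 was at 0.24, 0.25 and 0.22 with the upper quartile, the trimmed mean and centring, 0.33 after trend removal (0.31 local linear), and -0.21 to 0.052 with 1 library left out. HSP90AB1 was at 0.0273 with the upper quartile, 0.033 with the trimmed mean, and 0.0174 and 0.0085 (local linear) after trend removal. HSPE1 was at 0.0040 and 0.0104 and VBP1 at 0.0342 and 0.0339 after the same removals, and PFDN4 at 0.0032 with local linear removal. HSPB1 passed the threshold at -1.78 with local linear removal. With the trend removed and the replicate as a block, the limma adjusted p of HSPB1 was 0.176.

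The labels do not say whether libraries of the same replicate number were paired. Deviations from the group means correlated at 0.13, -0.010 and -0.17 between same-numbered libraries. Between differently numbered libraries they correlated at -0.19 to 0.18, so these values cannot decide it. With the replicate as a block, 1 gene over the table was called, and with the trend removed as well also 1, where the median of the chaperone genes was again 0.0775, HSPA8 was at 0.33, HSP90AB1 at 0.0174, HSPE1 at 0.0040 and VBP1 at 0.0342. Without counts, the depth behind low genes such as HSF1 and HSPA1A is unknown, so differences among them could not be resolved.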
